A study of Rattus norvegicus with 4 samples.

Results

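The genes described here are 8 members of the CNTF, LIF and IL6 cytokine pathway, the ligand genes Cntf, Lif, Clcf1 and Il6 and the receptor genes Cntfr, Lifr, Il6st and Osmr, chosen by symbol from the 25399 genes of a single-cell RNA count table; all 8 were found. The cells came from Sprague Dawley rats, from sciatic nerve at 1 day, sciatic nerve at 8 weeks, dorsal root ganglion at 1 day and dorsal root ganglion at 8 weeks, with 1 library in each of the 4 groups. The labels name no mutation or drug, leave sex undetermined, and describe Schwann cells grown in medium with serum without saying whether the sequenced cells had been cultured. The 4 suffixes of the barcodes (1 to 4) could be matched to no sample, and each is named below as library 1, 2, 3 or 4, without a comparison of nerve with ganglion or of ages. Levels are counts of UMIs (unique molecular identifiers, 1 per captured transcript) per 1000000 UMIs of a cell class in 1 library, written CPM, and all intervals are exact 95% intervals that cover counting error only.

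Cytokines of this family signal through receptor complexes built around the chain encoded by Il6st. CNTF and CLCF1 bind the CNTFR chain, which recruits the LIFR and IL6ST chains. LIF binds LIFR with IL6ST, IL6 binds IL6R with IL6ST, and oncostatin M uses OSMR with IL6ST. The bound chains activate JAK kinases and STAT3, and SOCS3 limits the signal. In peripheral nerve, myelinating Schwann cells are the known store of CNTF, a survival factor for neurons, while LIF and IL6 are known as cytokines of the injured nerve.

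Promoter sequences of Cntf and Il6 are shown because the results on ligand sources turn on these genes. Promoter entries for the GRCr8 build were available for 5 of the 8 members. The 250 bases upstream of each start are written from 5′ to 3′, with matches to the searched motifs in capitals.

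Cntf (chr1:219314536-219314785, minus strand): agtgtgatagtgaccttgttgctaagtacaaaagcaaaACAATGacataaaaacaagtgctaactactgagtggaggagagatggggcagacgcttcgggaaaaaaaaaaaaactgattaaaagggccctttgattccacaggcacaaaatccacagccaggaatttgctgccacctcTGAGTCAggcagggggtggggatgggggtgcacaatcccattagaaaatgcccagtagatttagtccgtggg
Il6 (chr4:5894576-5894825, minus strand): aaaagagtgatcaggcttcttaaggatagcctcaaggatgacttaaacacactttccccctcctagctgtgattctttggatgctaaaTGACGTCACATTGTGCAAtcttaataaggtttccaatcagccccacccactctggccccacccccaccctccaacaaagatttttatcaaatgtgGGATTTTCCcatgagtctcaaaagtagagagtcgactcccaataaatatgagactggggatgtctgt

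The motifs searched on both strands were ACAATG (SOX-type), TGANTCA (AP-1-type), TGACGTCA (CRE), TTGCNCAA (C/EBP-type), GGANTTTCC (kappaB-type) and TTCNNNGAA (STAT-type). The Cntf window held ACAATG at 212 to 207 bases upstream of the start and TGAGTCA at 72 to 66 bases upstream. The Il6 window held TGACGTCA at 162 to 155 bases upstream, ACAATG on the opposite strand at 154 to 149, a C/EBP-type match on the opposite strand at 152 to 145 that overlaps it, and GGATTTTCC at 67 to 59. Of 33469 windows of the same length, 11.1% held ACAATG, 6.34% TGANTCA, 1.59% TGACGTCA, 2.29% TTGCNCAA, 1.08% GGANTTTCC and 7.67% TTCNNNGAA. These matches describe the letters only, and the counts were made on another build, Rnor_6.0. Because the kappaB-type letters were changed after the Il6 match had been seen, their share of windows is no independent background for that match.

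The 4 libraries held 10087 to 10559 barcodes each and between 74425958 and 97572003 UMIs. Of 41444 barcodes, 33175 had at least 500 genes and at most 20% mitochondrial UMIs, and 27754 of these (83.7%) were given a cell class from marker genes that include none of the members. Median depth was 6617, 1645.5, 4639 and 7554.5 UMIs per kept cell in libraries 1 to 4. Glia-like cells were divided by the number of myelin markers present, of 8: at least 3 (myelin-high Schwann-like, 104, 158, 237 and 959 cells in libraries 1 to 4), at most 1 (myelin-low) or 2 (between the cut-offs). Neuron-like cells were numerous in libraries 2 and 3 alone (3970 and 2795 cells, against 0 and 2 in libraries 1 and 4), and in library 2 their median depth was 1210 UMIs. The perineurial-like class, with 50 or more cells in library 1 alone, was the weakest by its own markers: 5 of 8 were present in at least 10% of its cells and 1 was at 0. In library 4 fibroblast markers summed to 6424 CPM in glia-like cells, against 8091 CPM for the glia markers, and exceeded the glia markers in other myelin-low glia (6572 against 6001 CPM) and satellite-marker glia (6695 against 5802 CPM); in glia-like cells of libraries 1 to 3 they summed to 4801, 412.6 and 1936 CPM. Their part in the glial levels was not tested. Among the barcodes, 191 sequences occurred in more than 1 library.

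**Figure D1:**
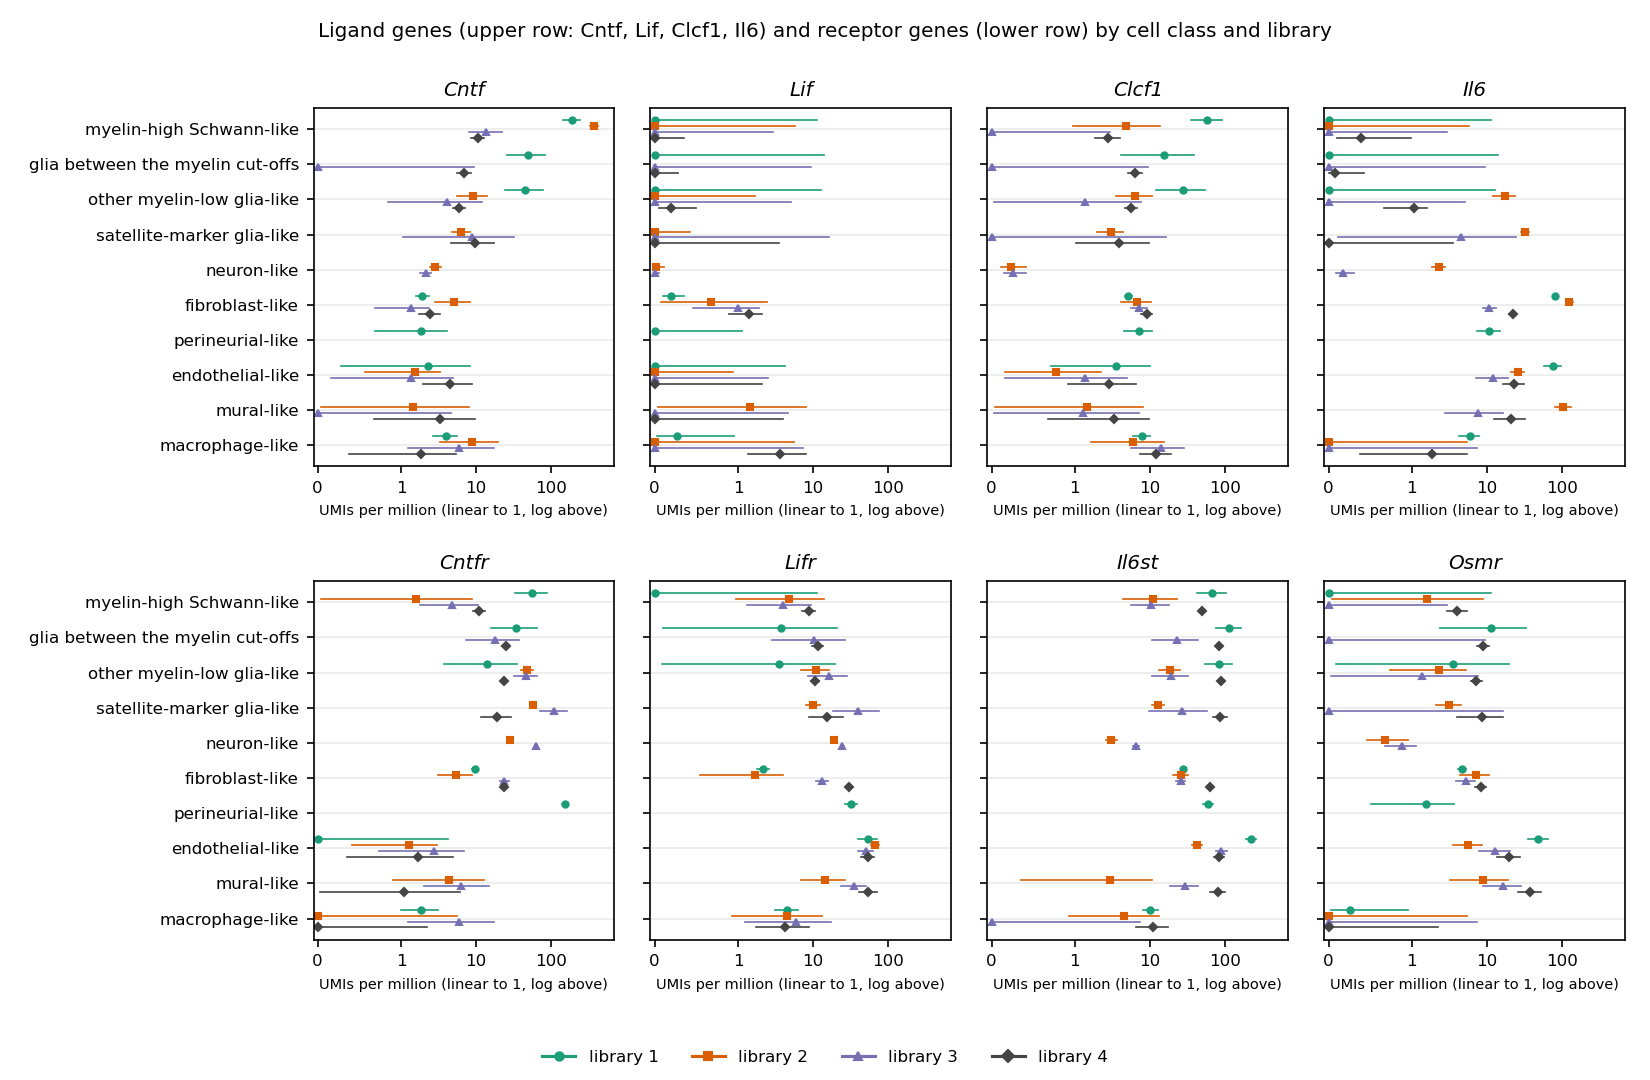
Levels of the 8 genes in CPM (horizontal, linear to 1 and logarithmic above) in each cell class (vertical) of each library (colour and shape), with 95% counting intervals, for classes of at least 50 cells. Cntf stands highest in myelin-high Schwann-like cells (10.5 to 376 CPM), Il6 in fibroblast-like, endothelial-like and mural-like cells, Cntfr in perineurial-like cells of library 1 (153 CPM), and Lifr at 50.2 to 67.5 CPM in endothelial-like cells.

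Cntf had its highest level in myelin-high Schwann-like cells in all 4 libraries. It stood at 191 CPM in library 1 (62 UMIs), 376 CPM in library 2 (238 UMIs), 13.7 CPM in library 3 (17 UMIs) and 10.5 CPM in library 4 (109 UMIs), against 1.93, 5.06, 1.34 and 2.45 CPM in fibroblast-like cells. The log2 ratio was 6.63 (6.15 to 7.09) in library 1, 6.22 (5.46 to 7.08) in library 2, 3.35 (2.20 to 4.55) in library 3 and 2.10 (1.57 to 2.66) in library 4. All 4 intervals lie above 0, and those of libraries 1 and 2 lie above those of libraries 3 and 4. In libraries 1 and 2 no other class had an interval that reached the myelin-high one; in libraries 3 and 4 it overlapped that of satellite-marker glia (8.90 CPM from 2 UMIs, and 9.59 CPM from 10 UMIs). It also overlapped those of macrophage-like cells, other myelin-low glia and glia between the cut-offs in library 3, and of endothelial-like and mural-like cells in library 4.

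Within the glia, Cntf followed the number of myelin markers. Against myelin-low glia-like cells (37.7, 6.94, 5.24 and 6.14 CPM in libraries 1 to 4), the log2 ratio was 2.34 (1.46 to 3.33), 5.76 (5.38 to 6.15), 1.39 (-0.11 to 3.18) and 0.78 (0.40 to 1.15), and the interval of library 3 includes 0. In library 2 glia with 0 myelin markers had 6.28 CPM, those with 1 had 8.43, those with 3 or 4 had 141 and those with 5 or more had 405. In library 1 the same steps, with 2 markers included, ran 16.7, 48.9, 49.4, 112 and 342 CPM, while median depth ranged from 2376 to 3135 UMIs. In library 4 they ran 5.02, 6.52, 6.93, 8.88 and 13.9 CPM, with median depth between 6375 UMIs at 0 markers and 11545.5 at 5 or more. Library 3 had 6.62, 3.998, 0, 4.31 and 19.3 CPM from 0 to 15 UMIs a step, so that only its last step had more than 3 UMIs. Cntfr, the receptor gene, was lower at the myelin-rich end in libraries 2, 3 and 4: it had 1.78, 6.44 and 4.14 CPM at 5 or more markers and 53.2, 70.6 and 17.9 CPM at 0 markers. In library 1 it had 0 UMIs in the 34 cells with 5 or more markers, 84.3 CPM (18 UMIs) at 3 or 4 markers and 16.7 CPM (2 UMIs) at 0 markers.

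**Figure D2:**
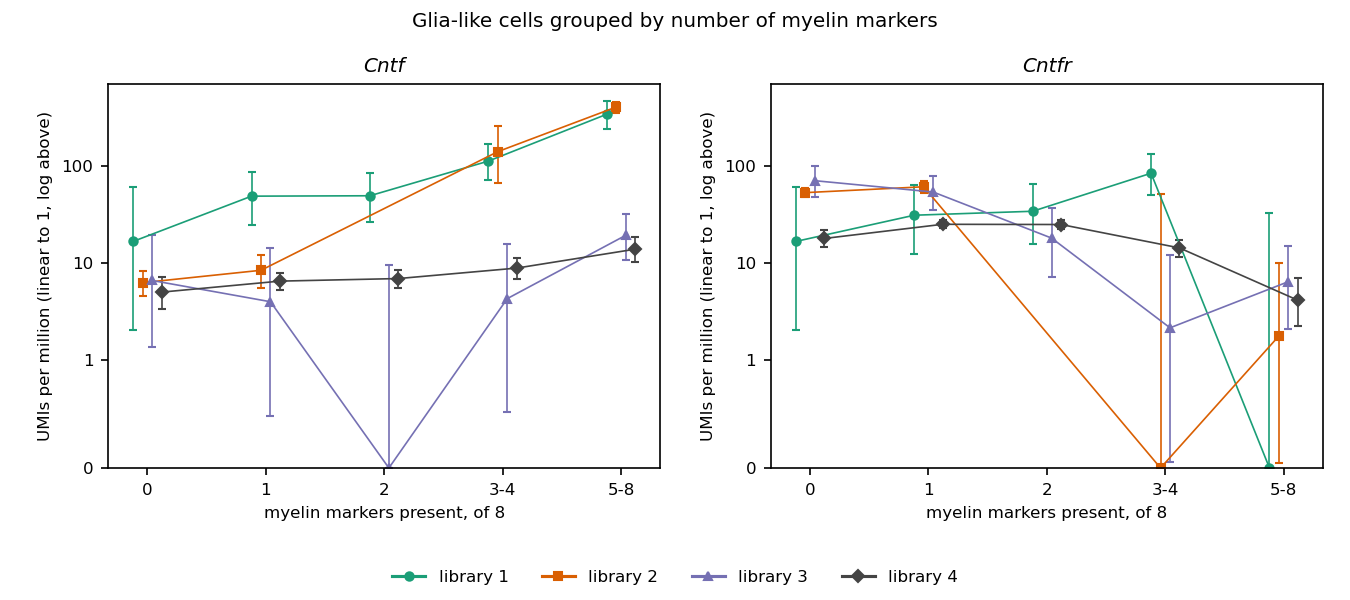
Cntf (left) and Cntfr (right) in CPM (vertical, linear to 1 and logarithmic above) in glia-like cells grouped by the number of myelin markers present (horizontal), with 95% counting intervals and 1 line per library. Cntf reaches 342 and 405 CPM at 5 or more markers in libraries 1 and 2, and 19.3 and 13.9 CPM in libraries 3 and 4.

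Cntf UMIs were found in 30.8% and 46.8% of myelin-high Schwann-like cells of libraries 1 and 2 (median depths 3038 and 3380.5 UMIs), against 1.66% and 3.33% of fibroblast-like cells, which were deeper (7836 and 6708.5 UMIs). With each cell thinned to 1000 UMIs the shares were 11.7% and 22.3%, against 0.205% and 0.243% of fibroblast-like cells. In libraries 3 and 4 the thinned shares were 0.844% and 0.626%, against 0.145% and 0.182%, levels at which few cells hold a UMI. Myelin-high Schwann-like cells held 26.5% and 49.4% of the Cntf UMIs of classed cells in libraries 1 and 2 while holding 0.472% and 0.942% of all their UMIs. In library 2, 74 of the 158 cells held these UMIs, up to 22 in a cell, and the top 5 cells held 30.7% of them. In library 1, 32 of the 104 cells held the 62 UMIs, up to 12 in a cell, and the top 5 cells held 46.8%. Counting intervals do not cover such spread between cells. Outside the glia, classes of at least 50 cells ranged from 0 to 8.96 CPM, and the barcodes removed by the filters ran from 1.91 to 4.15 CPM. Neuron-like cells of library 3, at 2.13 CPM, held 78.2% of its Cntf UMIs with 82.3% of all UMIs.

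Zfp91, which lies next to Cntf on the same strand in the RefSeq annotation, was examined because reads of neighbouring genes can be confused. Zfp91 had 259, 183, 226 and 289 CPM in myelin-high Schwann-like cells, against 96.9, 111, 175 and 180 CPM in fibroblast-like cells. Its log2 ratio was 1.42, 0.72, 0.36 and 0.68 in libraries 1 to 4, below the Cntf ratio of the same library each time. Over 44 points, each a class of at least 50 cells in 1 library, the 5 genes whose log levels were most correlated with Cntf among 10143 genes were Sfi1 (Pearson r = 0.80), Pea15 (0.79), Ctns (0.78), Gpd1 (0.76) and Fxyd3 (0.75). These points share libraries and glial subclasses, so the coefficients only describe likeness.

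Lif was close to absent from the data, with 17, 5, 11 and 38 UMIs in libraries 1 to 4, and only library 4 could be measured in a contrast. There it had 1.41 CPM (23 UMIs in 1200 cells) in fibroblast-like cells, against 0.0883 CPM (4 UMIs in 5113 cells) in glia-like cells, a log2 ratio of 4.0 (2.45 to 5.99). Macrophage-like cells of library 4 had 3.67 CPM (6 UMIs, interval 1.35 to 7.99), which overlaps the fibroblast-like interval of 0.894 to 2.12. In library 3, 9 of the 10 Lif UMIs of classed cells were in fibroblast-like cells, which held 10.7% of all UMIs. Neuron-like cells had 1 Lif UMI in 3970 cells of library 2 and 0 in 2795 cells of library 3, and 0 allows at most 0.107% of such cells to hold a UMI.

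Clcf1 differed in direction between libraries. In fibroblast-like cells it had 5.17, 6.74, 7.25 and 9.01 CPM in libraries 1 to 4, against 33.2, 3.74, 0.387 and 5.14 CPM in glia-like cells. The log2 ratio was -2.69 (-3.22 to -2.10) in library 1 and 0.85 (0.01 to 1.65), 2.64 (1.70 to 9.55) and 0.81 (0.50 to 1.11) in libraries 2 to 4; the value of library 3 rests on 1 glial UMI raised to a floor of 3. The level in fibroblast-like cells thus varied little while the glial level varied widely. In library 1 it was highest in myelin-high Schwann-like cells, 58.5 CPM from 19 UMIs in 14 of 104 cells (interval 35.2 to 91.4). Macrophage-like cells had 7.88, 5.97, 13.9 and 12.2 CPM, the highest of the classes with at least 50 cells in libraries 3 and 4, with intervals that overlap the fibroblast-like ones, and neuron-like cells had 0.233 and 0.261 CPM in libraries 2 and 3.

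Il6 was carried by fibroblast-like, endothelial-like and mural-like cells and was nearly undetected in myelin-high Schwann-like cells. Fibroblast-like cells had 80.3, 126, 10.8 and 22.2 CPM in libraries 1 to 4, against 2.15, 27.7, 0.387 and 0.596 CPM in glia-like cells. The log2 ratio was 4.64 (3.37 to 8.27), 2.18 (1.96 to 2.40), 3.22 (2.29 to 10.12) and 5.22 (4.65 to 5.84), with 2 and 1 glial UMIs raised to the floor of 3 in libraries 1 and 3. Il6 was thus above the glial level in fibroblast-like cells of every library, least so in library 2. Myelin-high Schwann-like cells had 0 Il6 UMIs in libraries 1, 2 and 3, which allows at most 2.88%, 1.90% and 1.27% of these cells to hold one, and 4 UMIs in 959 cells of library 4.

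Endothelial-like cells had 75.4, 26.1, 12.2 and 23.1 Il6 CPM in libraries 1 to 4, and mural-like cells had 104, 7.59 and 20.8 CPM in libraries 2 to 4. The endothelial-like intervals overlap the fibroblast-like ones in libraries 1, 3 and 4 and lie below them in library 2 (21.3 to 31.7, against 113 to 139). Fibroblast markers summed to 3867 CPM in endothelial-like cells of library 1, against 125800 CPM in its fibroblast-like cells; their part in the Il6 level was not tested. A few cells carried much of the signal in small classes: 15 of 183 mural-like cells of library 2 held all 71 UMIs, and the top 5 of them held 77.5%. In fibroblast-like cells of library 1, 1231 of 6345 cells held 4492 UMIs, at most 43 in a cell.

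Glia contributed Il6 in library 2 through the satellite-marker glia, myelin-low glia with at least 3 of 8 satellite markers. They had 32.7 CPM (281 UMIs, in 87 of 667 cells), other myelin-low glia had 17.3 CPM (38 UMIs), and 0 UMIs were found in 158 myelin-high Schwann-like cells. Satellite-marker glia of library 4 had 0 UMIs in 103 cells, and those of library 3 had 1 in 56. Fibroblast markers summed to 312 CPM in the satellite-marker glia of library 2, against 51410 CPM in fibroblast-like cells; their part in the Il6 level was not tested. Neuron-like cells had 2.29 and 0.174 CPM in libraries 2 and 3. Macrophage-like cells had 5.91 CPM in library 1, 0 UMIs in libraries 2 and 3, and 1.83 CPM in library 4.

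Fibroblast-like subsets, called by their marker genes, did not keep 1 order for Il6. In library 1 the Pi16 set had 103 CPM (96.8 to 108), the Ucma set 80.4 (74.5 to 86.7) and the Myoc set 42.9 (40.03 to 46.0), while cells of no set had 108. In library 2 the Myoc set had 201 CPM (175 to 229) and the Pi16 set 75.8 (60.3 to 94.04). The Myoc set was therefore lowest in library 1 and highest in library 2, with intervals that do not overlap those of the Pi16 set in either. In library 2, 5 of the 420 fibroblast-like cells held 144 of 373 Il6 UMIs (38.6%), up to 42 in a cell, and counting intervals do not cover such spread between cells. In library 3 the Pi16 set had 3.73 CPM, against 14.0 in cells of no set. The genes most like Il6 over the 44 points were Igfbp4 (r = 0.86), Pdgfd (0.86), Papss2 (0.85), Gstt1 (0.85) and Ltbp1 (0.85).

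Among the receptor genes, Cntfr, the chain that binds CNTF, was highest in perineurial-like cells of library 1, at 153 CPM (139 to 167), from 490 UMIs in 356 cells. These cells held 45.3% of the Cntfr UMIs of the library's classed cells with 4.66% of their UMIs. Perineurial-like barcodes of libraries 2 and 3, too few for a class (22 and 31), had 123 CPM (20 UMIs) and 51.9 CPM (13 UMIs). Fibroblast markers summed to 30800 CPM in the perineurial-like cells, against 125800 CPM in fibroblast-like cells, which had 9.67 Cntfr CPM. The part of fibroblast RNA in the perineurial-like level was not tested.

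Neuron-like cells had 28.5 and 62.8 Cntfr CPM in libraries 2 and 3, against 52.4 and 27.9 CPM in glia-like cells. The log2 ratio was -0.88 (-1.02 to -0.74) in library 2 and 1.17 (0.83 to 1.53) in library 3. The sign differed between the libraries, and with neuron-like cells of at least 5000 UMIs alone the neuron-like levels were 29.6 and 63.1 CPM. By marker genes, neuron-like cells of the Nefh set had 33.1 CPM (38 cells) and 72.4 CPM in libraries 2 and 3, of the Calca set 49.8 and 71.4, and of the Mrgprd set 12.5 and 53.7. The Mrgprd set was below the Calca and Nefh sets in both libraries, with intervals that do not overlap.

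Satellite-marker glia had 57.5, 111 and 19.2 Cntfr CPM in libraries 2 to 4, and myelin-high Schwann-like cells of the same libraries had 1.58, 4.84 and 11 CPM. The satellite-marker value of library 3 came from 25 UMIs in 15 of 56 cells (interval 72.0 to 164), and the top 5 cells held 60.0% of them. In library 1 myelin-high Schwann-like cells had 55.4 CPM (18 UMIs, all in cells with 3 or 4 myelin markers) and myelin-low glia 26.1 CPM (9 UMIs), a log2 ratio of 1.09 (-0.14 to 2.42), against -3.55 (-10.45 to -2.66), -3.68 (-5.18 to -2.47) and -1.08 (-1.39 to -0.78) in libraries 2 to 4. The value of library 2 rests on 1 myelin-high UMI raised to the floor of 3. Fibroblast-like cells had 9.67, 5.39, 24.0 and 23.8 CPM. Endothelial-like cells had 0, 1.28, 2.72 and 1.69 CPM from at most 5 UMIs, and macrophage-like cells had 1.84, 0, 5.95 and 0 CPM. Mural-like cells had 4.38, 6.32 and 1.10 CPM in libraries 2 to 4. Cntfr was thus at most 6.32 CPM in endothelial-like, mural-like and macrophage-like cells, and in libraries 2 and 3 myelin-high Schwann-like cells lay in the same range. Barcodes removed by the filters had 24.1, 31.4, 31.1 and 3.82 Cntfr CPM, and their part in the class levels was not tested. The genes most like Cntfr were Pmm1 (r = 0.78), Cbx5 (0.76), Grik5 (0.74), Thtpa (0.72) and Phpt1 (0.71).

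Lifr, the chain shared by LIF and CNTF, was at a similar level in endothelial-like cells of all 4 libraries. They had 54.5, 67.5, 50.2 and 53.5 CPM, against 3.22, 9.91, 11.6 and 10.6 CPM in glia-like cells. The log2 ratio was 4.08 (2.45 to 6.41), 2.77 (2.45 to 3.1), 2.11 (1.48 to 2.78) and 2.34 (2.0 to 2.66), and all intervals lie above 0. Mural-like cells had 14.6, 35.4 and 54.8 CPM in libraries 2 to 4, and their intervals overlap the endothelial-like ones in libraries 3 and 4. Neuron-like cells had 18.9 and 24.6 CPM in libraries 2 and 3, above glia by 0.93 (0.65 to 1.23) and 1.08 (0.56 to 1.66) on the log2 scale, and perineurial-like cells of library 1 had 32.4 CPM.

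Fibroblast-like cells had 2.18, 1.69, 13.2 and 30.1 Lifr CPM in libraries 1 to 4, so the level in libraries 3 and 4 was far above that in libraries 1 and 2. Their log2 ratio over glia-like cells was -0.56 (-2.14 to 1.74), -2.56 (-4.21 to -1.29), 0.18 (-0.41 to 0.81) and 1.51 (1.32 to 1.69). Lifr UMIs were found in 1.86%, 1.19%, 7.78% and 26.2% of fibroblast-like cells, and in 0.158%, 0.243%, 1.81% and 2.36% of the cells thinned to 1000 UMIs, which keeps libraries 3 and 4 above libraries 1 and 2. In library 4 the Pi16 set had 35.2 CPM and cells of no set 27.2. Macrophage-like cells had 4.28 to 5.95 CPM. The genes most like Lifr were Gnpda2 (r = 0.73), Actn4 (0.73), Dgke (0.73), Sh2d3c (0.72) and Cdc42bpb (0.70).

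Il6st, the transducing chain of all these receptors, was highest in endothelial-like cells of libraries 1 to 3 and far lower in neuron-like than in glia-like cells. Endothelial-like cells had 223, 42.7, 89.6 and 83.8 CPM, against 83.6, 13.9, 16.3 and 77.8 CPM in glia-like cells. The log2 ratio was 1.41 (1.03 to 1.81), 1.62 (1.30 to 1.94), 2.46 (1.95 to 3.0) and 0.11 (-0.14 to 0.34), so the interval of library 4 includes 0. Neuron-like cells had 3.07 and 6.60 CPM in libraries 2 and 3, below the glia by -2.18 (-2.51 to -1.85) and -1.30 (-1.76 to -0.81) on the log2 scale. The neuron-like sets of libraries 2 and 3 with at least 50 cells ranged from 2.92 to 7.88 CPM, and macrophage-like cells of all libraries from 0 to 11.01 CPM.

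In glia, Il6st also declined towards the myelin-rich end in library 4: it had 94.5 CPM at 0 myelin markers, 85.2 at 1, 84.2 at 2, 59.0 at 3 or 4 and 28.1 at 5 or more. Myelin-high Schwann-like cells were below myelin-low glia there by -0.84 (-0.98 to -0.70) on the log2 scale, while the intervals of the other 3 libraries include 0. Fibroblast-like cells had 27.6, 25.6, 25.8 and 62.8 CPM. The genes most like Il6st were Ric1 (r = 0.89), Kmt2a (0.86), Arhgef12 (0.85), Galnt1 (0.85) and Zc3h11a (0.84).

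Osmr, the oncostatin M receptor chain, was highest in endothelial-like or mural-like cells and had at most 2 UMIs in macrophage-like cells of a library. Endothelial-like cells had 48.7, 5.62, 12.9 and 19.7 CPM, against 4.29, 2.87, 0.387 and 7.06 CPM in glia-like cells. Mural-like cells had 8.75, 16.4 and 37.2 CPM in libraries 2 to 4, and their intervals overlap the endothelial-like ones; in library 2 both overlap the fibroblast-like interval. Macrophage-like cells had 2 UMIs in 1815 cells of library 1 and 0 UMIs in 182, 101 and 108 cells of libraries 2 to 4. Their intervals reach 5.51, 7.31 and 2.26 CPM in libraries 2 to 4, and overlap the fibroblast-like ones in libraries 2 and 3. Fibroblast-like cells had 4.61, 7.08, 5.25 and 8.34 CPM; their log2 ratio over glia-like cells was 0.10 (-1.27 to 1.99), 1.30 (0.44 to 2.14), 2.17 (1.21 to 9.09, from 1 glial UMI raised to the floor) and 0.24 (-0.06 to 0.53). The genes most like Osmr were Adamts1 (r = 0.80), Ehd2 (0.77), Rbpms (0.76), Lrp5 (0.75) and Fzd4 (0.75).

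Receptor chains were also counted together in single cells. UMIs of both Lifr and Il6st were found in 23.0%, 8.52%, 12.2% and 46.0% of endothelial-like cells of libraries 1 to 4, whose median depths were 5552, 6262.5, 4724.5 and 17860 UMIs. Macrophage-like cells, a class with little of either chain, held both in 0.110% of cells in library 1, 0 in libraries 2 and 3 and 3.70% in library 4, at median depths of 3719, 3054.5, 3808 and 14620 UMIs. Such shares follow depth as well as level. Neuron-like cells of at least 5000 UMIs held both Cntfr and Lifr in 27.4% and 47.0% of cells in libraries 2 and 3, and all of Cntfr, Lifr and Il6st in 4.56% and 12.5%, at median depths of 64941 and 41708 UMIs. Perineurial-like cells of library 1 held Cntfr, Lifr and Il6st together in 6.18% (3.91% to 9.21%) at a median of 7730.5 UMIs. In endothelial-like cells the 3 chains were found together in 0, 1, 1 and 2 cells.

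**Figure D3:**
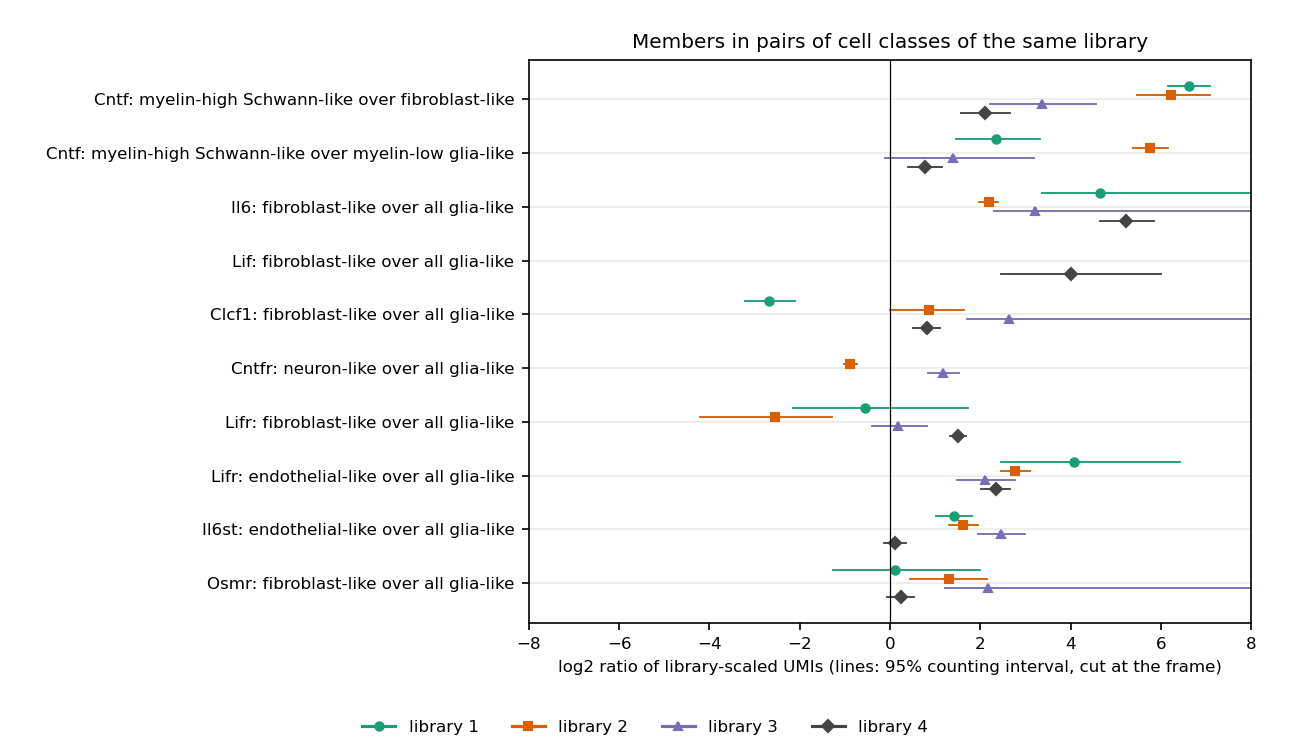
Log2 ratios (horizontal) of members between pairs of cell classes (vertical, upper class named before the lower) of the same library (colour and shape), with 95% counting intervals cut at the frame. Cntf lies above 0 in myelin-high Schwann-like over fibroblast-like cells (2.10 to 6.63) and Lifr above 0 in endothelial-like over glia-like cells (2.11 to 4.08) in all 4 libraries, while Clcf1 and Cntfr lie on both sides of 0.

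Counts of members past a 2-fold difference were read against all genes, and for this both had to have at least 20 UMIs on 1 side, which leaves out members with 10 to 19 UMIs whose ratios are given elsewhere. In myelin-high Schwann-like over fibroblast-like cells of libraries 1 to 4, 4 of 5, 1 of 5, 0 of 6 and 1 of 8 members with 20 UMIs were higher, against 37.2%, 11.3%, 10.5% and 13.5% of all genes, and 1, 2, 6 and 6 were lower, against 10.8%, 22.7%, 21.0% and 21.6%. Left out of these counts were Cntf in library 3, at 3.35 from 17 and 12 UMIs, and Cntfr in library 2, at -0.19. That Cntfr ratio rests on 1 myelin-high UMI raised to the floor of 3, with 1.58 against 5.39 CPM as counted. In fibroblast-like over glia-like cells 1 of 7, 2 of 7, 3 of 7 and 3 of 8 were higher, against 11.8%, 15.6%, 18.6% and 17.2%, and 4, 3, 1 and 1 were lower, against 33.4%, 14.4%, 11.6% and 15.4%. In library 1 the median log2 ratio of all genes in the first contrast was itself 0.60.

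In neuron-like over glia-like cells of libraries 2 and 3, 0 of 7 and 2 of 4 members were higher, against 33.4% and 21.8% of genes, and 5 and 2 were lower, against 21.4% and 28.3%. Left out, with under 20 UMIs, were Clcf1 (-2.16) and Il6 (-2.74) of library 3. Both rest on 1 glial UMI raised to the floor of 3. As counted, neuron-like cells had 0.261 and 0.174 CPM, against 0.387 CPM in glia-like cells for each gene. In endothelial-like over glia-like cells 4 of 7, 2 of 7, 2 of 4 and 3 of 7 were higher, against 17.5%, 21.8%, 14.9% and 17.3%, and 3, 3, 2 and 1 were lower, against 21.7%, 15.9%, 25.3% and 18.0%. Il6 (3.39) and Osmr (3.47) of library 3 had under 20 UMIs, each with 1 glial UMI raised to the floor. Cntfr was below the glial level, and Lifr above it, in the endothelial-like cells of every library. In myelin-high Schwann-like over myelin-low glia-like cells 1 of 2, 1 of 6, 0 of 3 and 0 of 7 were higher, against 5.87%, 13.7%, 5.07% and 2.77%, and 0, 3, 3 and 2 were lower, against 5.41%, 12.7%, 13.0% and 5.34%. Clcf1 (1.33) and Cntfr (1.09) of library 1 and Cntf (1.39) of library 3 had under 20 UMIs and are not in these counts. The members' median log2 ratio in this last contrast was 1.09, -0.73, -2.45 and -0.85, and that of all genes -0.05, 0.09, -0.15 and -0.05.

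Of the 10 other ligand and receptor genes of the family that were found, several were too low to measure. Il27 and Il27ra each had 1 UMI in the class where its CPM was highest. The largest class counts differ: Il27ra had 29 UMIs (0.42 CPM) in neuron-like cells of library 3. Osm, which encodes oncostatin M, had 25.5, 59.7, 85.3 and 45.2 CPM in macrophage-like cells of libraries 1 to 4, and 451.6 CPM (64 UMIs) in the 49 neutrophil-like barcodes of library 3; fibroblast-like cells had 0.335 to 1.41 CPM. Il6r, the binding chain for IL6, had 98.97, 94.05, 55.5 and 78.3 CPM in macrophage-like cells, against 0.265 to 2.15 CPM in glia-like cells. Macrophage-like cells were thus high in Il6r and Osm, below endothelial-like cells in Il6st, and had at most 2 Osmr UMIs in a library.

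Il11ra1, the binding chain for IL11, went with the fibroblasts: it had 201, 148, 133 and 160 CPM in fibroblast-like cells, against 69.7, 58.8, 24.4 and 32.6 CPM in glia-like cells, with log2 ratios from 1.34 to 2.45. Perineurial-like cells of library 1 had 169.5 CPM. Il11 had log2 ratios of 1.32 (-0.39 to 3.69) and 2.84 (2.05 to 3.69) in fibroblast-like over glia-like cells of libraries 3 and 4, with 26 and 3 UMIs in library 3, and Ctf1 was below glia in neuron-like cells (-2.98 and -3.22), while Ebi3 was above (1.92 and 2.63). Il31ra, whose product pairs with OSMR as the IL31 receptor, was at 28.5 CPM (32 UMIs) in 23 neuron-like barcodes of the Sst set in library 2, against at most 3.94 CPM in the other neuron-like sets of that library. The same 23 barcodes had 7.12 Osmr CPM (8 UMIs), 39.1 Lifr CPM (44 UMIs) and 642 Jak1 CPM (722 UMIs), against 0.678, 18.9 and 74.5 CPM in all neuron-like cells of the library. They number under 50, and these values carry no check in another library.

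**Figure D4:**
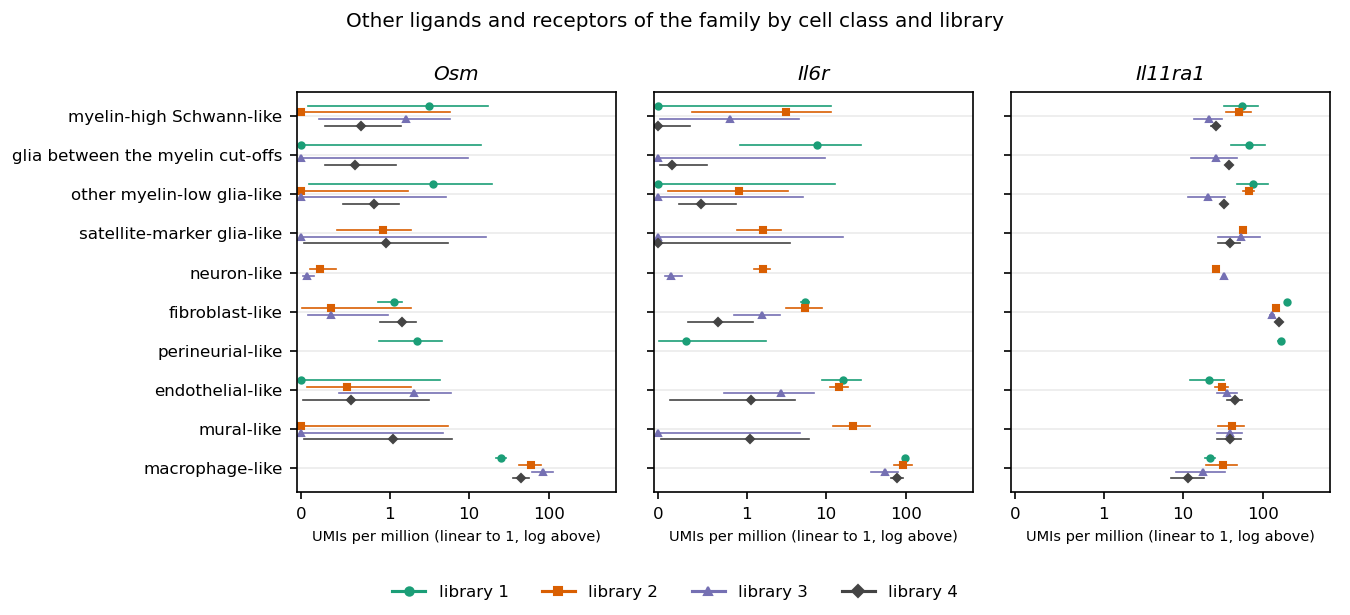
Levels in CPM (horizontal, linear to 1 and logarithmic above) of Osm, Il6r and Il11ra1 by cell class (vertical) and library (colour and shape), with 95% counting intervals, for classes of at least 50 cells. Among these, Osm (25.5 to 85.3 CPM) and Il6r (55.5 to 98.97 CPM) stand highest in macrophage-like cells and Il11ra1 in fibroblast-like and perineurial-like cells.

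Of the 9 JAK and STAT transducer genes, Jak1 was past 2-fold in endothelial-like over glia-like cells in all 4 libraries, with 289, 136.5, 128 and 158 CPM, against 113, 46.8, 33.7 and 51.5 CPM, and log2 ratios of 1.36 to 1.92. Stat5b was so in the 2 libraries where it was measured (1.26 and 1.90). In the list as a whole, 1 of 5, 3 of 9, 2 of 6 and 2 of 9 genes measured were higher. The shares of all genes higher were 17.5%, 21.8%, 14.9% and 17.3%. Lower were 0, 0, 0 and 2, against 21.7%, 15.9%, 25.3% and 18.0% of all genes. The list's medians were 0.42, 0.05, 0.35 and 0.32, against -0.18, 0.24, -0.30 and -0.13 for all genes. In neuron-like over glia-like cells Gab1, an adaptor of the receptor complex, and Stat5a were lower in both libraries (-2.94 and -3.21 for Gab1, -1.70 and -1.98 for Stat5a). Of the 9 genes of the list measured there, 1 and 0 were higher in libraries 2 and 3, against 33.4% and 21.8% of all genes. Lower were 2 and 2, against 21.4% and 28.3% of all genes. The list's medians were 0.16 and -0.14, against 0.36 and -0.09 for all genes. Stat3 itself had its highest level, 687 CPM (594 to 790), in other myelin-low glia-like cells of library 1. That interval overlaps those of myelin-high Schwann-like cells (490 to 658) and glia between the cut-offs (430 to 607). In libraries 2 to 4 other myelin-low glia had 277, 117 and 254 CPM, against 236, 276 and 303 CPM in endothelial-like cells.

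Neuron-like cells were low in the feedback inhibitor Socs3 and in the STAT3 response genes. Socs3 had 1.57 and 0.752 CPM in neuron-like cells of libraries 2 and 3, against 31.8 and 8.91 CPM in glia-like cells, and Ptpn2 and Socs2, other inhibitors, were also past 2-fold lower in both. Of the 8 feedback inhibitors measured, 5 and 3 were lower, against 21.4% and 28.3% of all genes. Higher were 0 and 1, against 33.4% and 21.8% of all genes. Of the response genes measured, 0 of 12 and 0 of 11 were higher, against 33.4% and 21.8% of all genes. Lower were 9 and 9, against 21.4% and 28.3% of all genes. Their median log2 ratios were -3.42 and -2.21, against 0.36 and -0.09 for all genes. Named by rule were Gfap (-3.95 and -3.86), Atf3 (-3.60 and -5.45), Junb (-3.61 and -3.44) and Cebpd (-4.43 and -3.33); Atf3 and Junb are immediate early genes, Gfap marks glia, and their use here as response genes rests on knowledge from other tissues.

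In endothelial-like cells Lcn2, which encodes lipocalin 2 and also serves here as a neutrophil marker, had 538, 733, 43.5 and 217 CPM, against 0, 2.09, 0.387 and 0.419 CPM in glia-like cells. Bcl6 was past 2-fold lower in the 3 libraries measured (-1.77 to -3.07). There 1 of 10, 2 of 11, 4 of 8 and 3 of 12 response genes measured were past 2-fold higher in libraries 1 to 4, against 17.5%, 21.8%, 14.9% and 17.3% of all genes, while 4, 4, 0 and 4 were lower, against 21.7%, 15.9%, 25.3% and 18.0%. In fibroblast-like over glia-like cells 6 of 10, 3 of 11, 0 of 10 and 4 of 11 response genes were lower, against 33.4%, 14.4%, 11.6% and 15.4% of all genes, while 0, 0, 4 and 2 were higher, against 11.8%, 15.6%, 18.6% and 17.2%; Gfap was lower in all 3 libraries measured and Hp, which encodes haptoglobin, higher in 2 (1.08 and 1.30). In myelin-high Schwann-like over fibroblast-like cells Cish, a feedback inhibitor, was past 2-fold lower in the 3 libraries measured (-1.30 to -2.86), from 2 UMIs raised to the floor in libraries 2 and 3. The median log2 ratio of the feedback inhibitors in neuron-like over glia-like cells was -1.36 and -0.83.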

How the data were processed

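Droplet libraries were made with the Chromium 3′ v3 kit, per the labels' protocols. The deposited file is 1 matrix of UMI counts, written by Cell Ranger 3.1.0 per the file headers; CASAVA 1.8, Seurat and the build Rnor_6.0 appear in the submitters' processing notes. Counts were used as deposited and no doublet caller was run. The members and all lists were chosen with earlier results of these data known.

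Barcodes with at least 500 genes and at most 20% mitochondrial UMIs were kept (8269 were removed). A marker was present when its UMIs exceeded the 0.99 quantile of a Poisson with 10% of the library's pooled profile at that depth, an allowance for free RNA. A class needed 3 of 8 markers and 2 more than any other class (perineurial-like cells were not set against fibroblasts); 5421 kept barcodes had none. Of 104 marker genes 99 were found, and of 43 pathway genes 41. Neuron and fibroblast subsets needed 2 markers of 1 set and more than of any other. UMIs were summed per class and library, and the log2 ratio of CPM had a floor of 3 UMIs a side, with an exact conditional 95% interval. A side needed 50 cells, a member 10 UMIs and another gene 20 UMIs on 1 side. At least 3 UMIs had also to be expected on the other side at an equal level, a requirement added after the values had been seen because the floor gave false directions between sides of unequal size. Shares have Clopper-Pearson intervals, and 0 cells allow 3 of the total. With 1 library a group, no p-value was computed. The ratios and the likeness measure were tested on simulated counts, and the gate was not. Named are all members, genes of a list past 2-fold the same way in every library measured (up to 4 a list and contrast), and each member's 5 most correlated genes; 1 gene that the rule names is not reported here. The letters of the kappaB-type motif were changed after its match in the Il6 window had been seen. Scripts ran under Python 3.11.15 with pandas 2.3.3, scipy 1.17.1, matplotlib 3.10.9 and numpy 2.4.6.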

Additional observations from a re-analysis of the deposited data

Results flagged for a closer look

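For 9 pairs of gene and contrast the interval lay above 0 in 1 library and below 0 in another; the differences between libraries were not tested, and each library is a single one of its kind. In myelin-high Schwann-like over fibroblast-like cells, the log2 ratio of Clcf1 was 3.50 in library 1 and -1.69 in library 4, that of Cntfr 2.52 in library 1 and -2.31 in library 3, and that of Il6st 1.29 in library 1 and -1.30 in library 3. In fibroblast-like over glia-like cells, Clcf1 had 2.64 in library 3 and -2.69 in library 1, Cntfr 0.18 in library 4 and -3.28 in library 2, Lifr 1.51 in library 4 and -2.56 in library 2, and Il6st 0.88 in library 2 and -1.60 in library 1. Cntfr in neuron-like over glia-like cells had 1.17 in library 3 and -0.88 in library 2. Clcf1 in myelin-high Schwann-like over myelin-low glia-like cells had 1.33 in library 1 and -0.99 in library 4. Library 1 gives an extreme value in 6 of the 9 pairs, and its glia-like class is the smallest of the libraries (288 cells, median 2806 UMIs); the part of that in these values was not tested.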

How the results depend on the processing

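Each of the 10 main ratios, as a median over libraries, was recomputed under 9 other settings and without each library, plus 3 settings added after seeing the data. The range used was the median over libraries of the lower limits to that of the upper limits, which is not an interval of the median ratio. Of 110 values other than those leaving out a library, 102 stayed within this range and 8 moved outside it. Of the 8, 4 changed sign, those of Osmr and Lif and 2 of Cntfr. Cntf in myelin-high Schwann-like over fibroblast-like cells was 4.79 and became 5.97 when any UMI made a marker present; Cntfr in neuron-like over glia-like cells, 0.14, became 0.42 in that setting, -0.28 with cells weighted equally and -0.10 with cells thinned to 1000 UMIs; and Lifr in endothelial-like over glia-like cells, 2.55, became 3.15 when any UMI counted. In cells thinned to 1000 UMIs, Il6 in fibroblast-like over glia-like cells went to 2.41 against 3.93 with all UMIs, and Osmr to -0.56 against 0.77, with only 2 of 4 libraries left measurable. Lif in fibroblast-like over glia-like cells was 4.0 from library 4 alone and -0.0173 without the requirement of expected UMIs, which let in library 1 with 0 glial UMIs at the floor. Without 1 library, Cntf over fibroblast-like cells ranged from 3.35 to 6.22, Cntf over myelin-low glia from 1.39 to 2.34, Il6 from 3.22 to 4.64, Clcf1 from 0.81 to 0.85, Cntfr from -0.88 to 1.17, Lifr from -0.56 to 0.18 in fibroblast-like and from 2.34 to 2.77 in endothelial-like cells, Il6st from 1.41 to 1.62 and Osmr from 0.24 to 1.30. The requirement of 3 expected UMIs and the settings with neuron-like cells of at least 5000 UMIs and without barcode sequences found in more than 1 library were chosen after seeing the data. No paired analysis was possible because each group has 1 library and barcode suffixes carry no replicate number. Depth limits Lif, at 62 UMIs in classed cells, and the glia of library 1.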
